A study of Mus musculus with 6 samples.

Results

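The 10 genes described here are Ccn1, Ccn2 and Ccn3 of the CCN family of secreted matricellular proteins, the YAP/TEAD targets or feedback genes Ankrd1, Amotl2, Ajuba, Lats2, Axl and Crim1, and the transcription factor gene Tead1. They were taken by gene symbol from the array's own annotation, with older symbols such as Cyr61, Ctgf and Nov counted. All 10 genes were on the array, among 19057 genes with a symbol, and 21 of its 45281 probes read them. The genes were chosen by their KO and WT levels on the same 6 arrays, as earlier results showed them, so their differences between the groups are a description and carry no test.

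The tissue was conjunctival epithelium of the fornix, the pocket where the lining of the eyelid turns over onto the eye, taken from mouse embryos at stage E14.5. The KO group held 3 embryos with a floxed Fgfr2 gene (fx/fx) and Le-Cre, recorded as Fgfr2-/-, and the WT group held 3 wild type embryos. Both groups shared a mixed background of FVB and 129. Le-Cre is a transgene active in the ocular surface ectoderm, so Fgfr2 would be removed in surface epithelium and its derivatives and not in the mesenchyme around the eye. Le-Cre was present in the KO embryos and not in the WT embryos, so an effect of the transgene and an effect of losing Fgfr2 cannot be told apart. The tissue was cut by laser microdissection from frozen sections of 10 µm, and 15 ng of total RNA per embryo was amplified before labelling. Each embryo gave 1 array, named here KO A, B and C and WT A, B and C.

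In the Hippo pathway, the kinases MST1/2 activate the kinases LATS1/2, which phosphorylate the coactivators YAP and TAZ and hold them out of the nucleus. When the kinases are less active, or when cells are spread or under tension, YAP and TAZ enter the nucleus and bind TEAD factors, which recognise a short DNA motif in promoters and enhancers. CCN1 and CCN2 are among the most used readouts of this output and are also induced by serum response factor, growth factors and TGF-beta. CCN proteins are secreted, bind integrins and matrix, and act on adhesion and migration. AMOTL2, LATS2 and AJUBA feed back on the same kinase cascade. Fgfr2 signalling drives budding of the lacrimal gland from this epithelium.

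The promoters are shown because the TEAD motif, read as the letters GGAATG on one strand or CATTCC on the other, is the sequence through which this output is read. RefSeq promoters of mouse build GRCm38.p6, from 250 bases before to 50 bases after the start, were held for 7 of the 10 genes, as 8 windows because Lats2 has a pair of them, and not for Ccn2, Ccn3 or Tead1. The motif stood in 7 of the 8 windows and in all 7 genes. It stood in 14.7% of all 32851 promoter windows and in 16.6% of all 27025 genes. Several of the genes are known YAP/TEAD targets, so this share is a description only, and a match of letters is no shown site of binding. Capitals mark the motif in the windows of Ccn1 (chr3:145649936-145650235, minus strand), Ankrd1 (chr19:36119795-36120094, minus strand), Amotl2 (chr9:102717554-102717853, plus strand), Ajuba (chr14:54577612-54577911, minus strand) and Crim1 (chr17:78199998-78200297, plus strand), each written 5′ to 3′ along the gene.
Ccn1: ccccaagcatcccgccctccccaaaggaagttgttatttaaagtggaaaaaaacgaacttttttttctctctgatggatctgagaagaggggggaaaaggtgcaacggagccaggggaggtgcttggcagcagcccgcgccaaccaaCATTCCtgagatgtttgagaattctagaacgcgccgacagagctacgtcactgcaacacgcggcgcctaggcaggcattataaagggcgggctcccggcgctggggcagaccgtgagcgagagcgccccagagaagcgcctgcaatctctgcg
Ankrd1: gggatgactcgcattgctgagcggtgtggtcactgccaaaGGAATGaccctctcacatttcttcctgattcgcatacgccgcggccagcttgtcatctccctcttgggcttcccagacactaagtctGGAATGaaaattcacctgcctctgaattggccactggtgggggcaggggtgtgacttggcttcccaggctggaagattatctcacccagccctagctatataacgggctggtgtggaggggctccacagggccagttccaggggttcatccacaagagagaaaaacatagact
Amotl2: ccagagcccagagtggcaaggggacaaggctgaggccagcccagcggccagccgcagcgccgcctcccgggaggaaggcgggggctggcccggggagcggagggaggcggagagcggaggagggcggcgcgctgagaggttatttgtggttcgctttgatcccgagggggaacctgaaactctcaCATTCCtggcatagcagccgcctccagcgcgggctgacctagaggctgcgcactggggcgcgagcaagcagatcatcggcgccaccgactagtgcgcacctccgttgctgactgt
Ajuba: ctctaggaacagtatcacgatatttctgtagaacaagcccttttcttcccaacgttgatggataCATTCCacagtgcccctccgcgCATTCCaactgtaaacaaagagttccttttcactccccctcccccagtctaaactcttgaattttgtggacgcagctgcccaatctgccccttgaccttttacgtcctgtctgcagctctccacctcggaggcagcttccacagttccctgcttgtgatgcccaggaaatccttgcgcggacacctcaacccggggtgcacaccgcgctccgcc
Crim1: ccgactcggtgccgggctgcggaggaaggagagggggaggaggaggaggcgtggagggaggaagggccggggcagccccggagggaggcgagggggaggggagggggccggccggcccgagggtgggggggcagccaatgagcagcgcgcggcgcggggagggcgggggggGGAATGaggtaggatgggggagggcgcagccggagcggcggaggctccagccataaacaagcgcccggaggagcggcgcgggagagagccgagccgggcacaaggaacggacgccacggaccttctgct
These windows hold the motif at 1 place for Ccn1 (-103 from the start), Amotl2 (-65) and Crim1 (-79), and at 2 places for Ankrd1 (-210 and -123) and Ajuba (-186 and -164). The Axl window held it at -233 and the Lats2 window at chr14:57746074-57746373 held it at +5, while the other Lats2 window held none. The windows held no AP-1 motif TGANTCA, which 7.81% of all windows held, and no CArG box, the motif of serum response factor, which 1.63% held. A TATAAA box lay at -25 in Ccn1, a motif in 13.6% of all windows.

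The deposited table gave an average bead intensity and a detection p-value for each probe. Intensities were corrected for background, quantile normalized and put on a log2 scale, and every level below is on that scale unless called a raw intensity. Fewer probes were detected on the KO arrays (34.6% ± 0.319, SD, n = 3) than on the WT arrays (49.5% ± 1.04, n = 3), a difference of -15.0 percentage points (exact two-sided permutation test, p = 0.1, the smallest that 3 against 3 arrays allow). The KO arrays also varied more, with a median SD over all tested genes and probes of 0.80 in KO and 0.30 in WT. Pairs of KO arrays correlated at Pearson's r of 0.70 to 0.71 across probes and pairs of WT arrays at 0.94 to 0.96. The 4 Fgfr2 probes did not move together: the brightest gave a log2 difference, KO minus WT, of 0.16 (SE 0.26, limma adjusted p = 0.788), and the others 0.86 with KO above WT, 0.68 with overlap, and -0.90 with detection on 0 KO and 3 WT arrays. None of the 4 passed, and they do not check the labels because their place relative to the deleted part is not stated. Of the 21 probes of the 10 genes, 12, 12 and 14 were detected on KO A, B and C, and 17, 13 and 14 on WT A, B and C.

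Of the 10 genes, 8 had a probe detected on at least 3 of the 6 arrays and entered the fit across all 13916 tested genes and probes, while Ankrd1 and Lats2 stayed below that filter. Adjusted p values under 0.05 were reached by Ccn1 and Ccn3, which were higher in KO, and by none of the other 6, and nothing is read from this because the genes were chosen with the same contrast. Ccn1 and Ccn3 did not pass without WT A, WT B or WT C, Ccn1 did not without KO A, and Amotl2 did without KO A. Ccn3 alone passed with an offset of 50 or the mean of probes, and Ccn3 and Crim1 but not Ccn1 passed with no background correction, with no filter and with a trended, robust variance model. Over all tested items, 2.41% passed in either direction (0.826% higher and 1.59% lower in KO). In 28.5% of all items the KO and WT arrays did not overlap (11.3% with KO above and 17.2% with KO below), as was the case for 5 of the 8 genes (4 with KO above and 1 with KO below). The 8 genes in the fit did not share a direction: 6 had a positive and 2 a negative difference. All 8 had a larger SD in KO than in WT, as did 83% of all tested items.

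**Figure D1:**
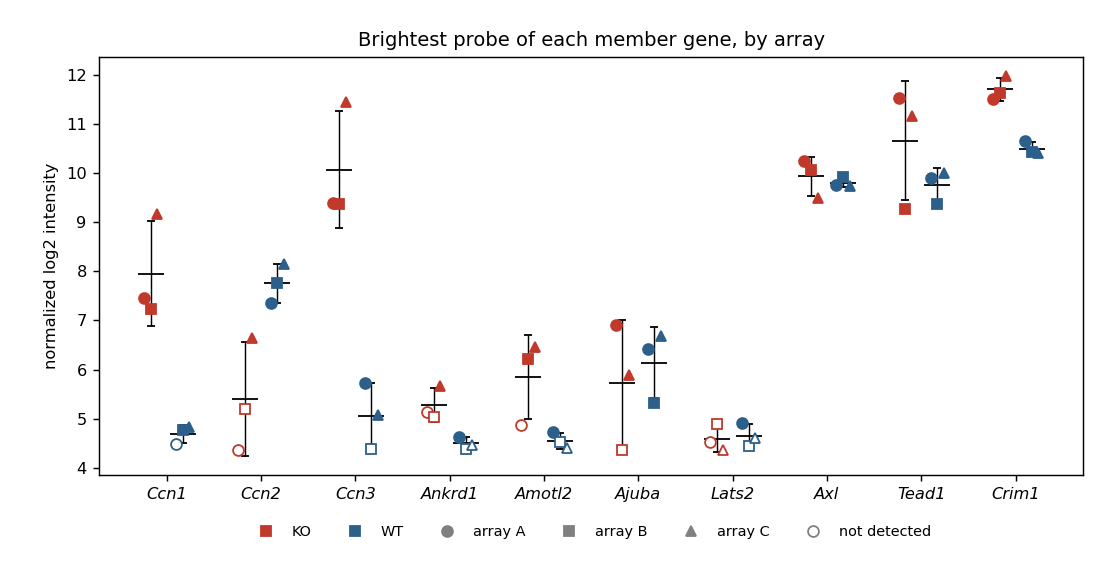
The vertical axis is the normalized log2 intensity of the brightest probe of each of the 10 genes, by array; circles, squares and triangles are arrays A, B and C, open symbols are arrays where the probe was not detected, and bars are mean ± SD of 3 arrays. KO arrays (red) lie above WT arrays (blue) without overlap for Ccn1, Ccn3, Ankrd1, Amotl2 and Crim1 and below them for Ccn2. Ankrd1 stayed below the detection filter.

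Ccn1 (formerly Cyr61) encodes an immediate early matricellular protein. Its brightest probe read 7.47, 7.23 and 9.17 on KO A, B and C and 4.48, 4.77 and 4.83 on WT A, B and C. All 3 KO arrays lay above all 3 WT arrays, and KO C was the highest by a wide margin. The means were 7.95 ± 1.06 in KO and 4.69 ± 0.19 in WT (SD, n = 3), a log2 difference of 3.26 (SE 0.56), or 9.58-fold on this scale. The raw intensities were 209, 200 and 529 in KO against 114, 121 and 134 in WT. The probe was detected on 3 of 3 KO arrays and 2 of 3 WT arrays. In bulk tissue a difference in the number of cells of a type and a difference in RNA per cell cannot be told apart.

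The other Ccn1 probes did not give the same size of difference. Probe 2 differed by 1.89 (SE 0.74) with no overlap on this scale and in 4 of 7 scalings, and was detected on 2 KO arrays and 1 WT array. Its raw intensity on KO C was 102, under all 3 WT arrays (109 to 121), whereas the brightest probe was highest on that array. Probe 3 differed by 0.11 (SE 0.84), with raw intensities of 101, 192 and 92.3 in KO and 113, 167 and 159 in WT, so the groups overlapped. Under median scaling this became -0.15, and without scaling -0.47, where the medians of all items were -0.49 and -0.81. The size of the Ccn1 difference thus came from the brightest probe.

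Ccn2 (formerly Ctgf), the connective tissue growth factor gene, went the other way. Its brightest probe read 4.37, 5.19 and 6.64 on KO A, B and C and 7.35, 7.76 and 8.14 on WT A, B and C. Every KO array lay below every WT array, and the probe was detected on 1 KO array, KO C, and on all 3 WT arrays. The difference was -2.35 (SE 0.62), between means of 5.40 ± 1.15 in KO and 7.75 ± 0.40 in WT (SD, n = 3). In raw intensity these were 97.6, 111 and 140 in KO against 303, 358 and 463 in WT. Probe 2 differed by -0.59 (SE 0.32) and was detected on no KO array and on all 3 WT arrays.

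Ccn2 did not pass the adjusted p of 0.05 in the quantile-normalized fit, but it did under median scaling, without scaling and without KO C. The brightest probes of Ccn1 and Ccn2 thus differed in opposite directions between the groups.

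Ccn3 (formerly Nov) encodes the CCN protein known to oppose some CCN2 actions in other tissues. Its brightest probe read 9.39, 9.36 and 11.43 on KO A, B and C and 5.72, 4.38 and 5.08 on WT A, B and C. Groups did not overlap, and KO C was again the highest. The probe was detected on 3 of 3 KO arrays and on 2 of 3 WT arrays, not on WT B. The means were 10.06 ± 1.19 and 5.06 ± 0.67 (SD, n = 3), a difference of 5.00 (SE 0.68), or 32.0-fold, and the widest of the 8 genes. Raw intensities were 645, 681 and 2282 in KO against 171, 106 and 144 in WT. The second Ccn3 probe was detected on none of the 6 arrays, so the Ccn3 difference rests on a single probe.

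Among the genes whose levels over the 6 arrays were most like Ccn1 (smallest root mean square difference after each gene was centred on its own mean) were Zeb1 at 0.26, 4933400A11Rik at 0.31 and Stx11 at 0.41. For Ccn2 they were 1110038B12Rik at 0.22, Bag5 at 0.24 and Ctnnbip1 at 0.28. For Ccn3 they were Cd36 at 0.63, Lypd2 at 0.80 and Twist2 at 0.82. Each measure runs over 6 arrays and is taken after seeing all genes, so it orders likeness and tests nothing. Twist2 also stands on the list of mesenchymal markers used here, and it read 10.00, 7.66 and 10.09 on KO A, B and C. The summed signal of that list was 9766, 6728 and 8616 on KO A, B and C and 5616 to 6369 on the WT arrays. The part of that list in the CCN differences was not tested.

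**Figure D2:**
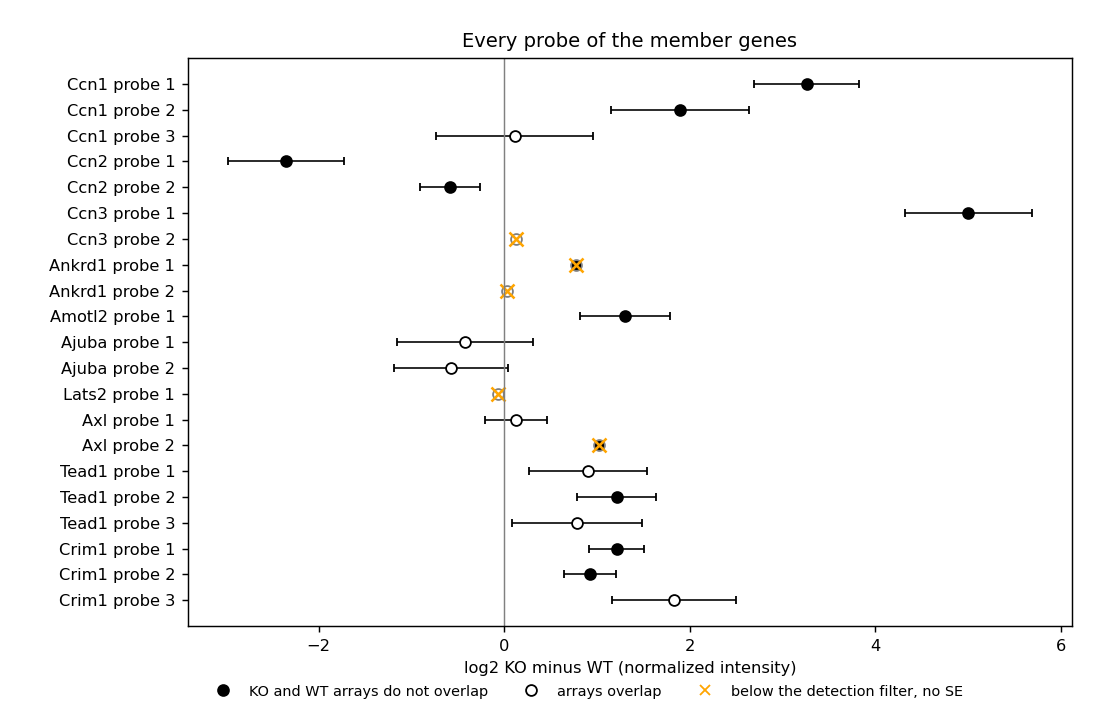
The horizontal axis is the log2 difference, KO minus WT, of each of the 21 probes in normalized intensity, with its standard error from the fit of all probes; filled circles are probes whose KO and WT arrays do not overlap. Probes of Ccn1, Ccn3, Ankrd1, Axl, Tead1 and Crim1 differ among themselves in overlap, and the 5 crossed probes lay below the detection filter.

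Among the genes of YAP/TEAD output that passed the filter, Amotl2, an angiomotin family scaffold that holds YAP in the cytoplasm, read 4.87, 6.21 and 6.47 on the KO arrays and 4.73, 4.53 and 4.41 on the WT arrays. The groups did not overlap on this scale, but KO A lay close to the WT arrays and was not detected. The difference was 1.30 (SE 0.48), with detection on 2 KO arrays and 1 WT array. Under median scaling (0.83) and without scaling (0.52) the groups overlapped. Relative to the median of all items the difference was 1.38 in the main fit, 1.32 under median scaling and 1.32 without scaling. In raw intensity, KO A read 105 and WT A read 125, so the order of these 2 arrays depended on the scaling.

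Ajuba, a LIM protein that binds LATS kinases and relieves YAP of their hold, read 6.91, 4.36 and 5.90 on the KO arrays and 6.41, 5.33 and 6.69 on the WT arrays. The groups overlapped, and KO B was the lowest of all 6 arrays. The difference of -0.42 (SE 0.73) was smaller than its error, and it was 0.06 under cyclic loess, where the median of all items was 0.09, and 0.26 without KO B. The second Ajuba probe differed by -0.57 (SE 0.61).

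Axl, a receptor tyrosine kinase of the TAM family, read 10.24, 10.07 and 9.48 on the KO arrays and 9.75, 9.91 and 9.74 on the WT arrays. The KO arrays straddled the WT arrays. The difference was 0.13 (SE 0.31), -0.02 under median scaling and -0.33 without scaling. Relative to the median of all items it was 0.21, 0.47 and 0.47 in the same order. A second Axl probe stayed below the filter, with 1 KO and 1 WT array detected. It differed by 1.02 with KO above WT without overlap, an order found in 4 of 7 scalings.

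Crim1, a transmembrane protein that binds bone morphogenetic proteins, had the smallest spread over the KO arrays of the 8 genes in the fit. It read 11.51, 11.63 and 11.97 on the KO arrays and 10.65, 10.43 and 10.40 on the WT arrays, detected on all 6. Every KO array lay above every WT array under all 7 scalings tried, unscaled raw intensities included. The difference was 1.21 (SE 0.28), or 2.31-fold, between means of 11.70 ± 0.24 in KO and 10.49 ± 0.13 in WT (SD, n = 3 each), and raw intensities were 2543, 2934 and 3180 against 1923, 1612 and 1707. Probe 2 differed by 0.92 (SE 0.28) without overlap, and by 0.07 with overlap without scaling, where the median of all items was -0.81. Probe 3 differed by 1.83 (SE 0.67) with overlap.

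Tead1, a TEAD factor that carries YAP and TAZ to DNA, read 11.52, 9.27 and 11.16 on the KO arrays and 9.90, 9.36 and 9.99 on the WT arrays. KO B was below all 3 WT arrays and the other KO arrays were above them. The difference was 0.90 (SE 0.64), positive under all 7 scalings but with overlap each time. Probe 2 differed by 1.21 (SE 0.43) without overlap, an order lost under median scaling, without scaling and in raw intensities. Probe 3 differed by 0.79 (SE 0.70) with overlap, and by -0.29 without scaling, where the median of all items was -0.81.

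Ankrd1, an ankyrin repeat protein of muscle and a common YAP readout, stayed below the filter, with 1 KO array and 1 WT array detected. It read 5.14, 5.03 and 5.66 on the KO arrays and 4.63, 4.39 and 4.47 on the WT arrays, which puts KO above WT on the normalized scale. In raw intensity the same probe read 107, 110 and 110 against 121, 106 and 119, and the groups overlapped. Lats2, the kinase that phosphorylates YAP and is itself a YAP target, was detected on 0 KO arrays and 1 WT array and differed by -0.07. At this signal no difference of Ankrd1 or Lats2 could be read.

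**Figure D3:**
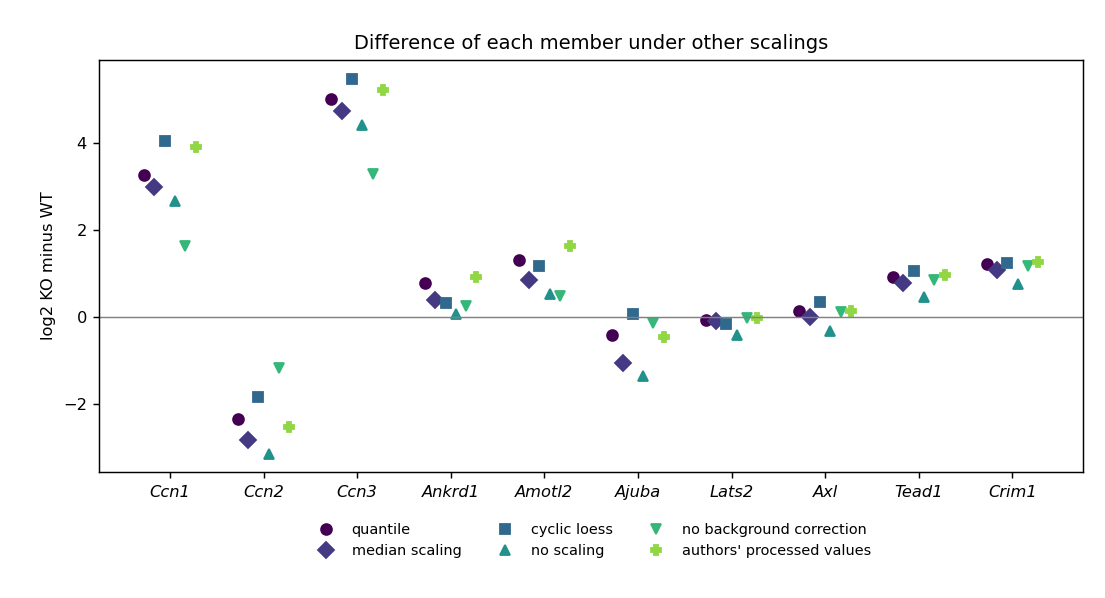
The vertical axis is the log2 difference, KO minus WT, of each gene's brightest probe under 6 scalings, 1 symbol per scaling. Ccn1, Ccn3, Amotl2, Tead1 and Crim1 stay above 0 and Ccn2 below 0 under each scaling shown, whereas Ajuba and Axl cross 0 with scalings that also move the median of all items.

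Taking every probe that passed the filter, 7 of 16 had KO above WT, 2 had KO below WT and 7 overlapped, beside 10.1% and 17.4% of all 20853 filtered probes. Of the 2 below, Ccn2 probe 2 was detected on 0 KO and 3 WT arrays, so it passed the filter through the WT arrays alone. More probes were detected on the WT arrays, so the 17.4% is open to the same limit. Of the 21 probes, 4 kept non-overlapping groups under all 7 scalings: the brightest probes of Ccn1, Ccn2, Ccn3 and Crim1. Over the alternative fits, Ccn1 stayed positive in 19 of 19 (1.62 to 4.04), Ccn3 in 19 of 19 (3.27 to 5.47), Crim1 in 20 of 20 (0.76 to 1.32) and Tead1 in 20 of 20 (0.44 to 1.59). Ccn2 was negative in 19 of 19 (-3.15 to -1.19). Some of these fits change only the filter, the variance model, the replicate block or the adjusted p threshold. They leave the difference of a gene unchanged, so their sign was fixed in advance and adds nothing to the counts. By brightest probe, KO C was the highest KO array for 5 of the 8 genes, Ccn1, Ccn2, Ccn3, Amotl2 and Crim1, but it was the lowest for the other Ccn1 probes (4.76 and 4.30).

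Other genes of the pathway came from lists not picked for their movement but fixed with earlier results known. Of the 7 lists, holding 67 tested genes, 3 genes passed, 2 higher and 1 lower, against 2.41% of all tested items. The list medians below are set beside the median of all items, which was -0.09, -0.49 under median scaling and -0.81 without scaling, a shift that all genes share.

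The other CCN genes, the YAP, TAZ and TEAD factors and the Hippo kinases and scaffolds had no gene that passed in limma, while 1 of 1, 2 of 4 and 8 of 24 tested had an unadjusted p under 0.05, as did 19.4% of all tested items. Ccn4 (formerly Wisp1), a CCN protein induced by Wnt signalling, read 6.63, 9.08 and 8.92 in KO and 5.28, 5.03 and 4.71 in WT, with all KO arrays above all WT arrays (3.20, SE 0.70, adjusted p = 0.0832). Ccn5 was not detected on any array. Wwtr1, which encodes TAZ, differed by 1.58 (SE 0.35, adjusted p = 0.0857), while Tead2 differed by -1.23 (SE 0.30, adjusted p = 0.102). The kinase gene Stk4, which encodes MST1, differed by -1.99 (SE 0.37, adjusted p = 0.0558), and Vgll3, a cofactor of TEAD proteins, by 2.59 (SE 0.50, adjusted p = 0.0623). Of the 24 tested Hippo genes 4 had KO above and 6 KO below WT, beside 11.3% and 17.2% of all tested items. Their median was 0.24, -0.29 under median scaling and -0.61 without scaling. Relative to the median of all items the list stood at 0.33, 0.19 and 0.19 in the same order.

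In a published signature of 22 YAP/TAZ target genes, 7 are among the 10 genes and 13 of the other 15 were tested. Nuak2, an AMPK-related kinase, fell and was the one of them to pass, while the other 12 did not. It read 4.53, 4.26 and 4.33 in KO, undetected on all 3 arrays, and 8.37, 7.31 and 8.24 in WT, so KO was lower by at least 6.01-fold (adjusted p = 0.0145). This call was lost without WT A (adjusted p = 0.107), WT B (0.0503) or WT C (0.101), over a range of 0.0046 to 0.144. F3, the tissue factor gene, differed by 2.02 (SE 0.48, adjusted p = 0.101). The median of these 13 genes was 0.91, -0.29 under median scaling and -0.60 without scaling, or 1.00, 0.20 and 0.20 relative to the median of all items.

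In the list of serum response factor, MRTF and actin genes, 2 of 16 tested rose, 0 fell and 14 did not pass. Myl9, the regulatory light chain of smooth muscle myosin, read 8.93, 10.60 and 9.23 in KO and 6.29, 5.45 and 5.15 in WT (3.96, SE 0.56, adjusted p = 0.0308). Tpm2, beta-tropomyosin, read 9.97, 10.17 and 10.19 in KO and 6.10, 7.73 and 6.53 in WT (3.32, SE 0.47, adjusted p = 0.0311). Each was lost without any 1 of the WT arrays, with adjusted p of 0.12, 0.154 and 0.163 for Myl9 and 0.15, 0.0635 and 0.169 for Tpm2. Both were also lost with array weights. In this list 8 of 16 tested genes had KO above WT and 0 below, beside 11.3% and 17.2% of all tested items. The median was 0.29, or -0.26 without scaling, which is 0.38 and 0.55 relative to the median of all items.

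Other matricellular genes had 0 of 7 tested that passed (1 at an unadjusted p under 0.05), with a median of 0.36; Fbln1 differed by 0.92 (limma adjusted p = 0.181) and Hspg2 by -1.17 (adjusted p = 0.314). The ligands of the AXL receptor family had 0 of 2 tested that passed (0 at an unadjusted p under 0.05 in limma): Pros1 differed by -1.09 (adjusted p = 0.326) and Gas6 by -0.37 (adjusted p = 0.563).

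**Figure D4:**
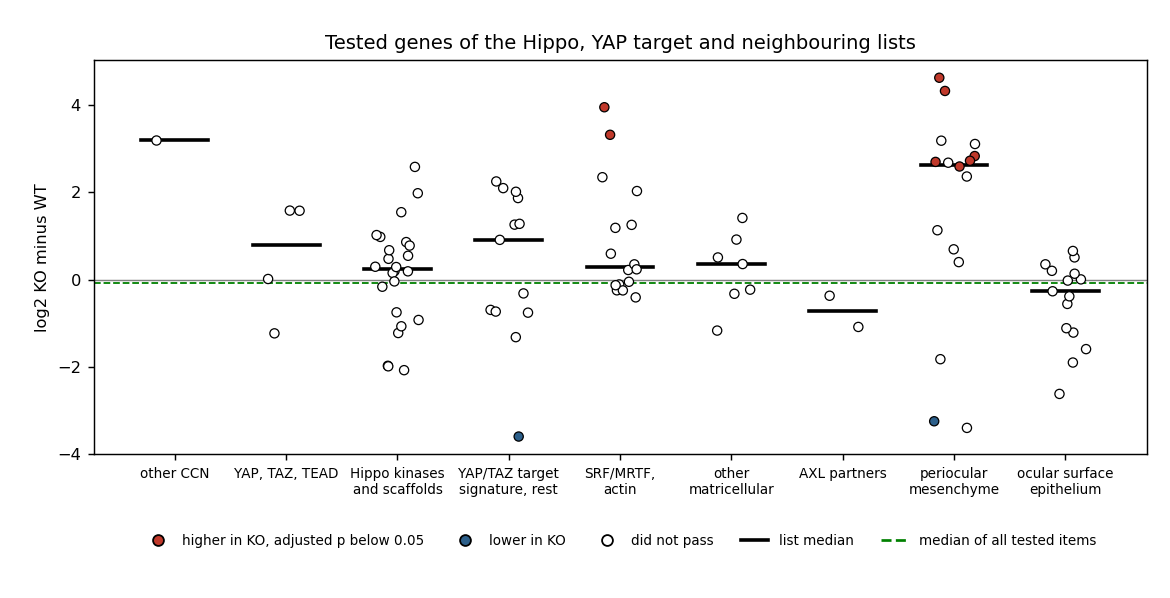
The vertical axis is the log2 difference, KO minus WT, of each tested gene in the pathway lists and in the lists of mesenchymal and epithelial markers, with list medians as bars and the median of all tested items as a dashed line. Filled circles passed an adjusted p of 0.05; the mesenchymal list holds 6 that rose and 1 that fell.

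Markers of other cell types moved with the groups as well. Of the 16 tested markers of the mesenchyme around the eye, 6 rose and 1 fell, beside 0.826% and 1.59% of all items. Their median was 2.64. Groups did not overlap for 10 above and 3 below, beside 11.3% and 17.2% of all items. The 6 that rose (Col1a1, Col1a2, Col3a1, Prrx1, Ogn, Twist2) had means of 4.38 to 7.47 in WT and 7.11 to 10.06 in KO. Osr2, Foxc2 and Foxc1 lay lower in KO without overlap. Their WT means were 11.18, 10.20 and 9.88 and their KO means 9.35, 6.95 and 6.48. The summed signal of the list, in which such bright genes weigh most, ran from 6728 to 9766 in KO and from 5616 to 6369 in WT. Of 18 on the array, 4 were undetected on all WT arrays. Epithelial markers had 0 of 15 passed in limma (4 with an unadjusted p under 0.05, beside 19.4% of all items). All 4 (Epcam, Krt15, Krt18 and Krt8) were lower in KO, and groups did not overlap for 2 above and 5 below. The summed signal of the epithelial list was 18900 to 23580 in KO and 22890 to 24230 in WT. Globin and other erythroid genes had 3 of 5 higher, beside 0.826% of all items, with a summed signal of 5043 to 5662 in KO and 556 to 764 in WT.

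The remaining marker lists were smaller in signal. Endothelial markers summed to 71.0 to 256 in KO and 41.3 to 54.9 in WT, none of 8 passed the filter, and Kdr, Tie1, Emcn and Flt1 were undetected on every array. Muscle markers summed to 148 to 572 in KO and 69.8 to 83.1 in WT, with Des, Acta1, Tnnt1 and Tnnc1 undetected on every array. Melanocyte and neural crest markers summed to 232 to 267 in KO and 635 to 940 in WT. Of 4 tested, 1 passed as lower and 3 had KO below WT without overlap, beside 1.59% and 17.2% of all tested items. These 3, Sox10, Ednrb and Kit, were each detected on 0 KO and 3 WT arrays, so they passed the filter through the WT arrays alone. Sox10 was the gene that passed, undetected on all KO arrays and at 8.73, 9.05 and 8.48 on WT A, B and C. In the same list Dct, Tyrp1 and Pmel stayed below the filter, with differences of 0.53, 0.34 and 0.62 and overlap. The number of melanocytes was not tested. Leukocyte markers summed to 37.0 to 718 in KO and 248 to 529 in WT, where the high KO value came from Laptm5 on KO B (9.42). Tyrobp, Mrc1 and Cx3cr1 were undetected on all KO arrays and detected on all WT arrays, so they passed the filter through the WT arrays alone. All 4 tested had a negative difference and none passed in limma (2 at an unadjusted p under 0.05, beside 19.4% of all items). Lens markers summed to 226 to 597 in KO and 180 to 362 in WT, with 1 of 6 higher, beside 0.826% of all items. Nerve markers summed to 156 to 305 in KO and 145 to 165 in WT. The part of any of these in the differences of the 10 genes was not tested.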

How the data were processed

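The deposited scanner table holds, per the file headers, an average bead intensity (linear), its bead error, a bead count and, for each probe, a detection p-value; the values are not normalized between arrays. Processed intensity values from the authors were deposited in another table, and their scaling and centring are not stated; GenomeStudio is named in the submitters' processing notes, with no version. Here neqc in limma 3.58.1 (R 4.3.3) corrected background from the detection p-values, quantile normalized and took log2 with an offset of 16. A probe was kept when its detection p-value lay under 0.05 on 3 or more of the 6 arrays (20853 of 45281 probes), and the brightest probe of each gene (13916 items) was fitted with lmFit and eBayes, genotype as the only term, with Benjamini-Hochberg adjustment over all items. Member SEs come from that fit, and those of further probes from a fit of all 20853 probes. The fit was tested on simulated data. Probes of the 10 genes had 25 to 64 beads and a bead error of 2.05% to 9.15% of signal, and the number of arrays limits the precision. Separate embryos are biological replicates, with 1 amplification each.

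The 10 genes, the lists and the rule for named genes were chosen with earlier results of these data known. The rule took all 10 genes with every probe, Fgfr2, the called genes of each list (up to 4, or the 2 with the smallest p where fewer were called), and 3 genes most like each of Ccn1, Ccn2 and Ccn3. A gene undetected with its probe on all arrays of a group has only a bound, computed per array against its own signal or the lowest detected one, whichever was higher. Deviations of same-letter arrays from their group means correlated at -0.03, -0.0043 and -0.0052. With 3 arrays per group this cannot show whether the replicate letters pair the embryos. Sequences are RefSeq promoters of GRCm38.p6. Figures were made in Python 3.11.15 with matplotlib 3.10.9. The labels name conjunctival epithelium, while their extraction text names lens tissue; the tissue label was followed.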

Additional observations from a re-analysis of the deposited data

How the results depend on the processing

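Over all items, 336 passed (65.8% lower in KO). The count was 1068 with median scaling (90.2% lower), 2068 with no scaling (95.8%), 660 with no filter, 189 with detection p below 0.01 on all 6 arrays, 185 with array weights and 764 at an adjusted p below 0.10, and 12 to 563 when 1 array was left out. Cyclic loess left 51.8% of its 245 calls lower. Median scaling, cyclic loess and no scaling moved the median of all items by -0.40, 0.18 and -0.72. No filter and the stricter detection filter tested 29453 and 6206 items, and 88 and 36 pathway genes, in place of 13916 and 67. Of the 10 genes, 2 of 8 tested passed in the main fit, against 1 with an offset of 50 and with the mean of probes. The stricter filter left 3 of them to test, Axl, Tead1 and Crim1, and not Ccn1 or Ccn3. Of these 3, 0 passed (1 at an unadjusted p under 0.05 in limma). The count was 3 with median scaling, with no scaling and at adjusted p below 0.10. It was again 2, but with Crim1 in place of Ccn1, with no background correction, no filter or a trended robust fit. When 1 array was left out it was 0 to 3. Without WT A, B or C none passed (4 at an unadjusted p under 0.05 in limma). The 3 pathway genes became 5 with no background correction, an offset of 50 or the mean of probes, 8 with median scaling, 16 with no scaling, 6 with no filter or the stricter one, 1 with array weights, 9 at an adjusted p below 0.10 and 0 to 7 when 1 array was left out. With a replicate block, 0 items, 0 of the 10 genes and 0 pathway genes passed in limma. At an unadjusted p under 0.05 in limma they were 2079, 4 and 18. The blocks rest only on the letter that a KO and a WT array share. Fgfr2 was at -0.0065 under cyclic loess and at -0.32 without scaling, against medians of all items of 0.09 and -0.81. The causes were not tested. Low signal over background limits Ankrd1, Lats2 and the dim probes.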
